A study of Mus musculus with 24 samples.

Results

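The glutamate and GABA receptor subunit genes were taken from the gene symbols of the array: AMPA (Gria), kainate (Grik), NMDA (Grin), delta (Grid) and metabotropic (Grm) glutamate receptors, and GABA-A (Gabra, Gabrb, Gabrg, Gabrd, Gabre, Gabrr) and GABA-B (Gabbr) receptors. Only probe sets with a single symbol were used, and each gene was read from its probe set with the highest mean over all 24 arrays. This gave 36 genes of 18193 tested: 4 AMPA, 5 kainate, 6 NMDA, 1 delta, 6 metabotropic, 13 GABA-A and 1 GABA-B gene.

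RNA came from cerebral cortex of adult mice heterozygous for aldh1l1 - eGFP-L10a, a transgene that puts a GFP-tagged ribosomal protein under the control of Aldh1l1, a gene of astrocytes. All groups carried it, so no group lacked the tag. Tagged ribosomes were precipitated, and their RNA (the bound fraction) was hybridized from 18 single mice, 6 each in sleep, waking and sleep deprivation. The remainder is the unbound fraction, which holds RNA of all other cells and astrocyte RNA that was not precipitated. It was hybridized as pools of 3 mice, 1 pool of animals 1 to 3 and 1 of animals 4 to 6 in each state, 6 arrays in all. Sleeping mice were killed in the light phase at 3 to 5 pm, having slept at least 75% of the last 6 to 7 h. Their sleep bout was over 45 min. Waking mice were killed in the dark phase at 3 to 5 am. Their waking bout was over 1 h, with 70% waking in the prior 6 to 7 h. Sleep-deprived mice were killed after 4 h of enforced waking in the light phase. Spontaneous waking and clock time therefore cannot be told apart in waking against sleep. Likewise, enforced waking and clock time cannot be told apart in sleep deprivation against waking. An age in weeks and the sexes were not given in the sources used here.

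AMPA, kainate and NMDA receptors are ion channels assembled from subunits and opened by glutamate, while metabotropic glutamate receptors signal through G proteins. GABA-A receptors are chloride channels, and GABA-B receptors couple to G proteins. Neurons use these receptors at synapses, and astrocytes carry some of them and respond to transmitter with calcium signals.

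The values are log2 expression values, and only differences of the same gene between arrays are compared, since the brightness of different probe sets is not comparable. Differences are log2 values given relative to the median difference of all genes, each with its standard error (SE). That median was 0.16 between fractions, between 0.02 and 0.11 among bound states and between -0.12 and 0.30 among unbound states. A gene is called when its adjusted p is under 0.05 by limma with Benjamini-Hochberg adjustment over all genes. Calls and adjusted p rest on the differences as fitted, before that median is subtracted.

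The precipitation could be checked on its target. Aldh1l1 was 13.2-fold higher in the bound fraction, Rpl10a, the gene of the tagged protein, was 2.24-fold higher, and all 10 astrocyte markers listed were called higher. The mean log2 level of these 10 markers was 12.23 to 12.50 on bound arrays and still 9.13 to 9.74 on unbound arrays. All 8 general neuron markers were called lower, but their mean log2 level on bound arrays was still 10.03 to 10.67, against 12.13 to 12.40 on unbound arrays. Neuron marker genes were thus detected on every bound array, and the part of neuronal RNA in the receptor values was not tested. Exactly equal values were shared by 48 of 48 pairs of arrays within a group and by 0 of 228 pairs from different groups. Which arrays were normalized together was not given in the sources used here, and if each group was normalized on its own, group and normalization run cannot be told apart. Among the bound arrays, 43.8% of genes differed between animals 1 to 3 and animals 4 to 6, so values are given by this split below.

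Most receptor subunit genes were lower in the bound fraction. Against a background of 69.4% of all genes called (42.2% higher and 27.2% lower), 31 of the 36 receptor genes were called, 11 higher and 20 lower. Their median difference was -1.07, and 25 of 36 lay below the median gene. All 4 AMPA genes were lower, while each other family with more than 1 gene had members on both sides. Grin2c, Gabrg1, Grm3 and Grik5 were the genes with the largest excess in the bound fraction. Between these bulk fractions, fewer cells of a type and less RNA per cell cannot be told apart.

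**Figure D1:**
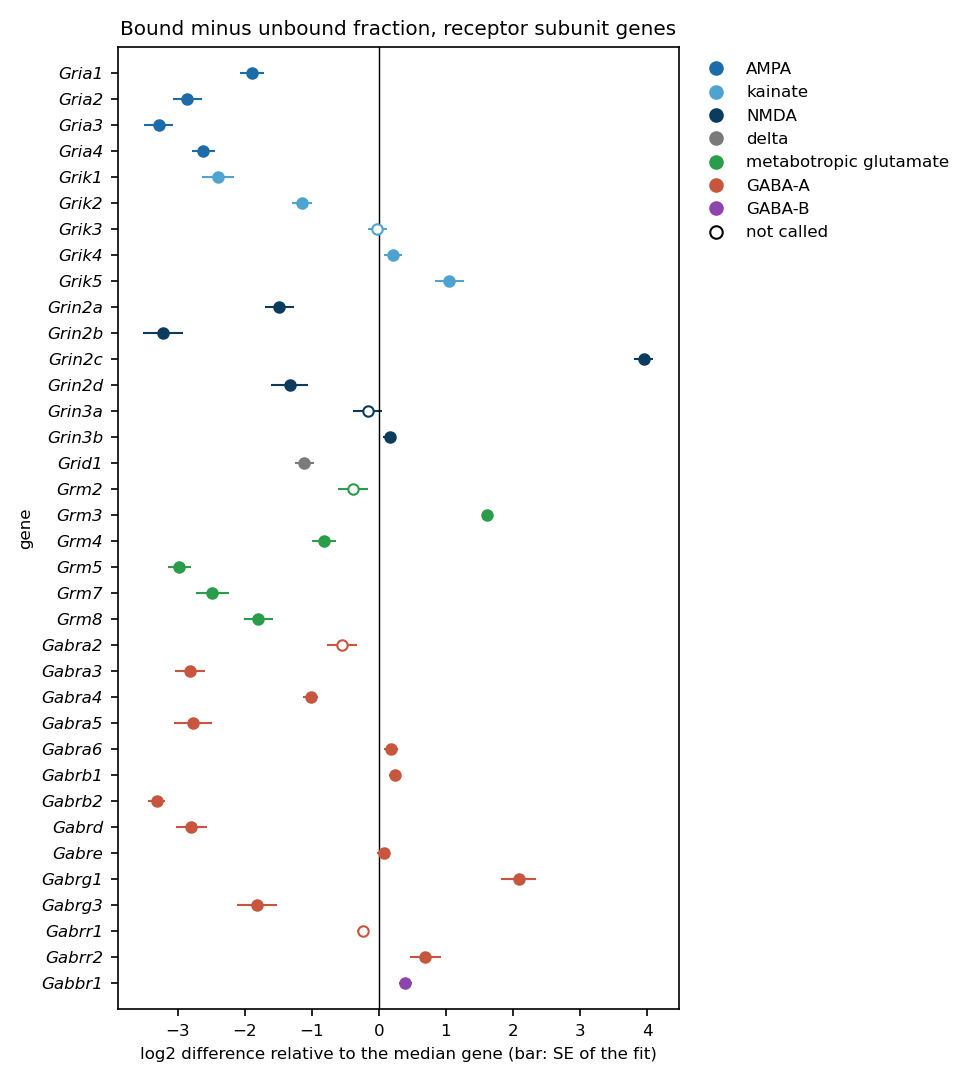
Difference between the bound and unbound fraction for each of the 36 receptor genes, on a log2 scale relative to the median gene, with the SE of the fit. Colours mark receptor families and open circles genes that were not called: Grin2c lies at 3.95, and all 4 AMPA genes lie between -3.28 and -1.89.

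Of the NMDA genes, Grin2c encodes a subunit whose channels are less sensitive to block by magnesium than those of Grin2a or Grin2b. Bound arrays read 9.96 to 10.99 in sleep (median 10.20), 10.34 to 11.04 in waking (median 10.60) and 9.79 to 10.81 after sleep deprivation (median 10.41). The unbound pools read 6.35 and 6.76 in sleep, 6.46 and 6.58 in waking and 6.19 and 5.59 after sleep deprivation. All 18 bound arrays were higher than every unbound pool. The difference was 3.95 (SE 0.15, 15.4-fold, adjusted p = 2.90e-16), and it was 3.52 within sleep, 4.04 within waking and 4.29 within sleep deprivation. Grin2b, which encodes a subunit of slowly decaying NMDA receptors, lay on the opposite side. Its bound arrays read 7.45 to 8.86 in sleep (median 8.32), 7.58 to 9.65 in waking (median 9.09) and 7.42 to 9.21 after sleep deprivation (median 8.49). Its pools read 11.51 and 11.12, 11.60 and 11.52, and 11.85 and 11.62 in the same order of states. The fractions did not overlap, and the difference was -3.22 (SE 0.30, adjusted p = 7.54e-09). Grin2a (-1.49) and Grin2d (-1.33) were also lower, and Grin3b, which encodes a glycine-binding subunit, was called at a small excess of 0.16. Grin3a, with a difference of -0.17, was not called.

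Among the metabotropic genes, Grm3 and Grm5 parted. Grm3, whose receptor inhibits cyclic AMP formation, had bound values of 11.63 to 12.04 in sleep (median 11.76), 11.74 to 12.09 in waking (median 11.92) and 11.69 to 12.02 after sleep deprivation (median 11.75). Its unbound pools read 10.07 and 10.09, 10.17 and 10.02, and 10.05 and 10.02 in the same order of states. The arrays of a fraction lay close together, and the difference was 1.61 (SE 0.07, 3.05-fold, adjusted p = 5.75e-15). Grm5, whose receptor mobilises calcium, had pools at 11.33 and 11.18, 11.61 and 11.43, and 11.04 and 11.10. Its bound arrays lay far below, between 7.51 and 9.17 over all states, and are given by state with the state comparisons. The difference was -2.98 (SE 0.17, adjusted p = 3.10e-12), without overlap. Grm7 (-2.49), Grm8 (-1.80) and Grm4 (-0.81), which encode receptors found mainly at presynaptic sites, were lower, and Grm2 (-0.38) was not called. Grm8 lay below the median level of all probe sets on the bound arrays (mean 4.76), where low signal limits the size of its difference.

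**Figure D2:**
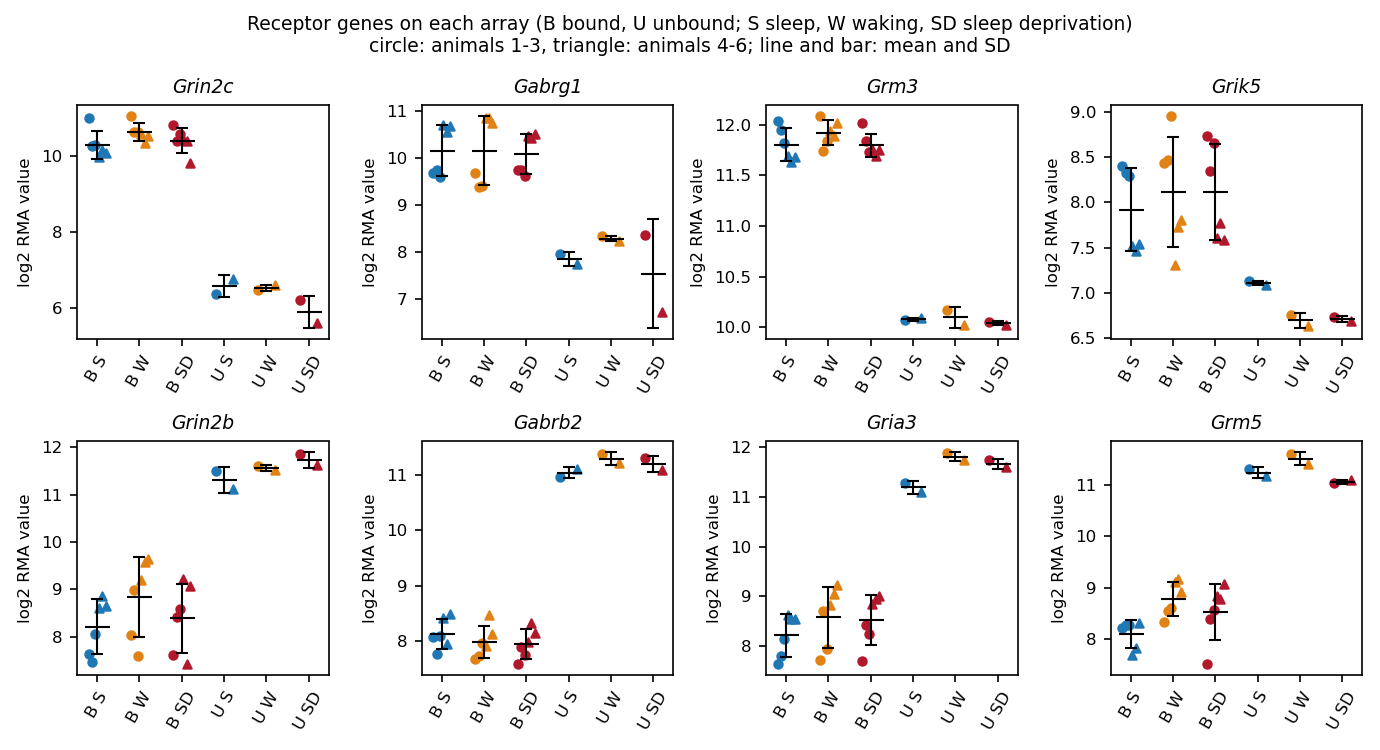
Log2 value on every array for 4 genes higher in the bound fraction (upper row) and 4 lower (lower row); circles are animals 1 to 3 or their pool, triangles animals 4 to 6 or their pool, and lines with bars the mean and SD. Bound and unbound arrays do not overlap for any of the 8 genes, while Gabrg1, Grik5 and Gria3 split within the bound groups by animals. The genes shown have the 4 largest differences in each direction, so the lack of overlap follows in part from that choice.

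The AMPA genes, which encode the channel of fast excitatory transmission, were lower throughout. Gria3 read 7.63 to 8.63 in sleep (median 8.33), 7.71 to 9.22 in waking (median 8.77) and 7.70 to 9.0 after sleep deprivation (median 8.63) on bound arrays. Its pools read 11.29 and 11.09, 11.88 and 11.74, and 11.74 and 11.60. It was lower in the bound fraction by a difference of -3.28 (SE 0.21, adjusted p = 2.75e-11). Gria2, whose edited subunit limits calcium entry, read 8.39 to 9.45 in sleep (median 9.30), 8.87 to 10.15 in waking (median 9.41) and 8.54 to 9.87 after sleep deprivation (median 9.27) on bound arrays. Its pools read 11.80 and 11.64, 12.19 and 12.20, and 11.88 and 11.88, and the difference was -2.86 (SE 0.21, adjusted p = 3.01e-10). Gria4 (-2.62) and Gria1 (-1.89) followed, and none of the 4 overlapped between fractions. How many of all genes lay without overlap between fractions was not counted. The kainate genes were divided. Grik5, which encodes a high-affinity subunit that needs a partner to form a channel, had bound values of 7.46 to 8.40 in sleep (median 7.92), 7.31 to 8.95 in waking (median 8.12) and 7.58 to 8.73 after sleep deprivation (median 8.06). Its unbound pools read 7.13 and 7.09, 6.76 and 6.64, and 6.73 and 6.69. The bound arrays lay above the pools without overlap, by 1.05 (SE 0.22, adjusted p = 4.58e-05). Within sleep alone the difference was 0.60 and was not called (adjusted p = 0.0773). Grik4, the other high-affinity subunit gene, read 6.16 to 6.84 in sleep (median 6.36), 6.60 to 7.13 in waking (median 6.86) and 6.13 to 6.89 after sleep deprivation (median 6.67) on bound arrays, with pools at 6.28 and 6.36, 6.56 and 6.02, and 6.36 and 5.94. The fractions overlapped, and Grik4 was called at 0.21, a call that ended without the unbound pool of animals 4 to 6 in waking (adjusted p = 0.0961) or in sleep deprivation (adjusted p = 0.0803). Grik1 (-2.40) and Grik2 (-1.14) were lower, and Grik3 (-0.02) was not called by its brighter probe set. The bound mean of Grik1 was 3.79, and 8 of its 18 bound values lay below the 25th percentile of all probe sets, so low signal limits the size of its difference. Grid1, a delta receptor gene, was lower by its brighter probe set (-1.11). Its other probe set lay at 0.42 relative to the median probe set and was not called.

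GABA-A genes split 5 higher, 6 lower and 2 not called. Gabrg1 encodes a gamma subunit. Bound arrays read 9.59 to 10.70 in sleep (median 10.14), 9.39 to 10.86 in waking (median 10.22) and 9.61 to 10.51 after sleep deprivation (median 10.08). The unbound pools read 7.95 and 7.73, 8.32 and 8.24, and 8.35 and 6.71. No bound array reached down to a pool, and the difference was 2.09 (SE 0.27, 4.25-fold, adjusted p = 1.64e-07). The pools after sleep deprivation lay far apart, and the bound arrays of each state split by animal number. On the other side stood Gabrb2, a beta subunit of common synaptic GABA-A receptors, with bound values of 7.77 to 8.50 in sleep (median 8.09), 7.68 to 8.47 in waking (median 7.94) and 7.59 to 8.33 after sleep deprivation (median 7.95). Its pools read 10.97 and 11.12, 11.38 and 11.21, and 11.31 and 11.10, all far above. Its difference was -3.32 (SE 0.12, 9.96-fold, adjusted p = 1.56e-15). Gabra3 (-2.81), Gabra5 (-2.77) and Gabrd (-2.80), alpha and delta subunits of which the last is found outside synapses, were lower without overlap. Gabra3 read 5.41 to 6.54 in sleep (median 6.05), 5.97 to 7.33 in waking (median 6.43) and 5.95 to 7.41 after sleep deprivation (median 6.59), with pools at 8.75 and 8.63, 9.25 and 9.51, and 8.97 and 9.17. Gabra5 read 5.89 to 6.88 in sleep (median 6.43), 5.15 to 7.12 in waking (median 6.04) and 5.39 to 7.07 after sleep deprivation (median 6.90), with pools at 8.46 and 8.73, 9.26 and 9.23, and 9.09 and 8.97. Gabrd read 6.05 to 7.14 in sleep (median 6.89), 6.21 to 7.34 in waking (median 6.76) and 6.19 to 8.03 after sleep deprivation (median 7.10), with pools at 9.22 and 9.28, 9.80 and 9.70, and 9.30 and 9.38. In each of these genes the highest bound array stayed below the lowest pool. Gabrg3 (-1.81) and Gabra4 (-1.02) were lower as well, and Gabra2 (-0.55, by its brightest probe set) and Gabrr1 (-0.24) were not called.

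The remaining excesses in the bound fraction were small. Gabbr1, a GABA-B subunit gene, read 12.52 to 13.02 in sleep (median 12.85), 12.53 to 13.16 in waking (median 12.76) and 12.55 to 12.93 after sleep deprivation (median 12.74) on bound arrays, with pools at 11.99 and 12.23, 12.31 and 12.42, and 11.98 and 12.44. The fractions did not overlap, and the difference was 0.39 (SE 0.10, adjusted p = 2.58e-05). Gabrb1, a beta subunit gene, read 10.15 to 10.47 in sleep (median 10.34), 10.18 to 10.73 in waking (median 10.43) and 10.19 to 10.48 after sleep deprivation (median 10.36), with pools at 9.66 and 9.73, 10.27 and 10.52, and 9.87 and 9.80. Its waking pools reached into the bound range, and the difference was 0.23 (SE 0.08). Gabrr2 was called at 0.70 (SE 0.23), with bound values of 3.25 to 6.27 and pools at 3.24 and 2.95, 3.39 and 3.34, and 3.41 and 3.26. Gabra6 (0.18) and Gabre (0.07) were called at levels near the low end of the arrays, where Gabrr2 also lay. With each pool and its 3 animals as a block, 29 receptor genes were called, against 62% of all genes. Gabra6 (range 2.83 to 3.72 on bound arrays) and Gabre were then lost. The Gabre call was also lost without any 1 of 9 single arrays or pools, with adjusted p from 0.0501 to 0.209.

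Other probe sets of a gene did not always give the same direction. Of the 23 receptor genes with several probe sets, 16 had calls only lower, 2 only higher, 4 in both directions and 1 none. The same classes were not counted for all genes with several probe sets, so these counts have no background. The 4 with both were Gabbr1, Gabrb1, Gabrd and Grin2d. For Gabrb1 the probe sets gave 0.32, -0.77, -0.90 and -0.99 relative to the median probe set, and a fit on their mean gave -0.63 relative to the median gene, so its direction depends on the probe set. Gabbr1 gave 0.48, 2.11, -1.15 and 0.50, Gabrd -2.72 and 0.58, and Grin2d -1.25 and 0.69. For 2 genes not called above, another probe set was called lower: Grik3 at -2.36, and Gabra2 at -1.67 and -1.03 by 2 of its 5 probe sets. Both Gabrg1 probe sets were higher (2.17 and 3.28) and all 5 Gabrb2 probe sets were lower. Grin2c, Grm3 and Grik5 had 1 probe set each, so no second one bears on them.

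The promoters of the 4 genes with the largest bound excess are shown because they differ in base composition although the 4 genes lie on the same side of the comparison. Each is the 250 bases before the annotated start (RefSeq, GRCm38.p6), 5′ to 3′ on the gene's strand. Capitals mark the GC box, GGGCGG or its reverse complement CCGCCC, and the Grin2c promoter holds overlapping copies.
Grin2c, chr11:115267244-115267493, minus strand: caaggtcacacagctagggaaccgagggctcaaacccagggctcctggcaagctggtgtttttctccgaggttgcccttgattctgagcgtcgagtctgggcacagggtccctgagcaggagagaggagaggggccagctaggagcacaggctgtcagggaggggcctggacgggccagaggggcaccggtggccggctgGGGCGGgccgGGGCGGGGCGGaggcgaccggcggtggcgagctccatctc
Gabrg1, chr5:70842618-70842867, minus strand: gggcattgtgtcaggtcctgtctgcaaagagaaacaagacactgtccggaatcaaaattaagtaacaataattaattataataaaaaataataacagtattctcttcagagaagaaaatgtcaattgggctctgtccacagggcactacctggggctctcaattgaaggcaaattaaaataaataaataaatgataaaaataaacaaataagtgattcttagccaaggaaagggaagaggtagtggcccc
Grm3, chr5:9725353-9725602, minus strand: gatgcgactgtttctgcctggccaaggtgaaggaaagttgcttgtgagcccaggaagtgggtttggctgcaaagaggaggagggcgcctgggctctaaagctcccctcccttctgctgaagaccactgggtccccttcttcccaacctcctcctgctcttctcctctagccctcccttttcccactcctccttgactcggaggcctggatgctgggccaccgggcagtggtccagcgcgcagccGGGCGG
Grik5, chr7:25072370-25072619, minus strand: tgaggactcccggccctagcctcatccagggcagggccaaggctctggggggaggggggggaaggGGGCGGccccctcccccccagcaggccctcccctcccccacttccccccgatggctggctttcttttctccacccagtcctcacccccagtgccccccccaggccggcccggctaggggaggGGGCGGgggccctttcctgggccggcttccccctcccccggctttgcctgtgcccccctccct

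Grin2c held 3 GC boxes and 68.8% GC, Grik5 2 and 75.2%, Grm3 1 and 62.4%, and Gabrg1 0 and 35.6%. Promoters were matched for 26 of 36 receptor genes, and 15 of those 26 held a GC box, against 32.7% of 32851 promoters of the same length. A receptor gene was counted when any of its promoters matched, whereas the share is over single promoters. For this and the other motifs the count and the share are therefore in unlike units, and no enrichment can be read from them. By direction, 6 of 11 genes higher and 5 of 11 genes lower in the bound fraction held one. The other motifs searched on both strands were the cyclic AMP response element TGACGTCA (0 of 26 receptor genes, 1.55% of all promoters), the E-box CACGTG (0, 6.02%), the SOX core ACAATGG (0, 3.02%), the NFI motif TTGGCA (2, 12.3%) and the TATA box TATAAA (3, 12.4%). These are matches of letters in a window, and neither a match nor its lack shows what binds there.

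Neighbouring genes of a GABA-A cluster differed between fractions. In RefSeq order on chromosome 5, Gabrg1 is followed by Gabra2, Cox7b2, Gabra4 and Gabrb1. Their differences were 2.09 for Gabrg1, -0.55 for Gabra2 (not called), -1.02 for Gabra4 and 0.23 for Gabrb1, whose direction depended on the probe set. Gabra6 and Gabrb2, adjacent on chromosome 11, lay at 0.18 and -3.32, whereas the adjacent Gabrg3 and Gabra5 on chromosome 7 were both lower. Gabra6 lay below the 25th percentile of all probe sets on every array, so low signal limits its difference.

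Few receptor genes differed between states in the bound fraction. In waking against sleep, 2 of 36 were called higher and 0 lower, against 11.2% of all genes (9.07% higher and 2.14% lower). After sleep deprivation, 3 were called higher and 0 lower than in sleep, against 14.3% (12.3% higher and 2.02% lower). Between sleep deprivation and waking, 1 was higher and 0 lower, against 6.84% (4.17% higher and 2.67% lower). The median differences of the 36 genes were 0.06, 0.02 and -0.09. Grin2c, Gabrg1, Grm3 and Grik5 were not called in any of the 3 comparisons.

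**Figure D3:**
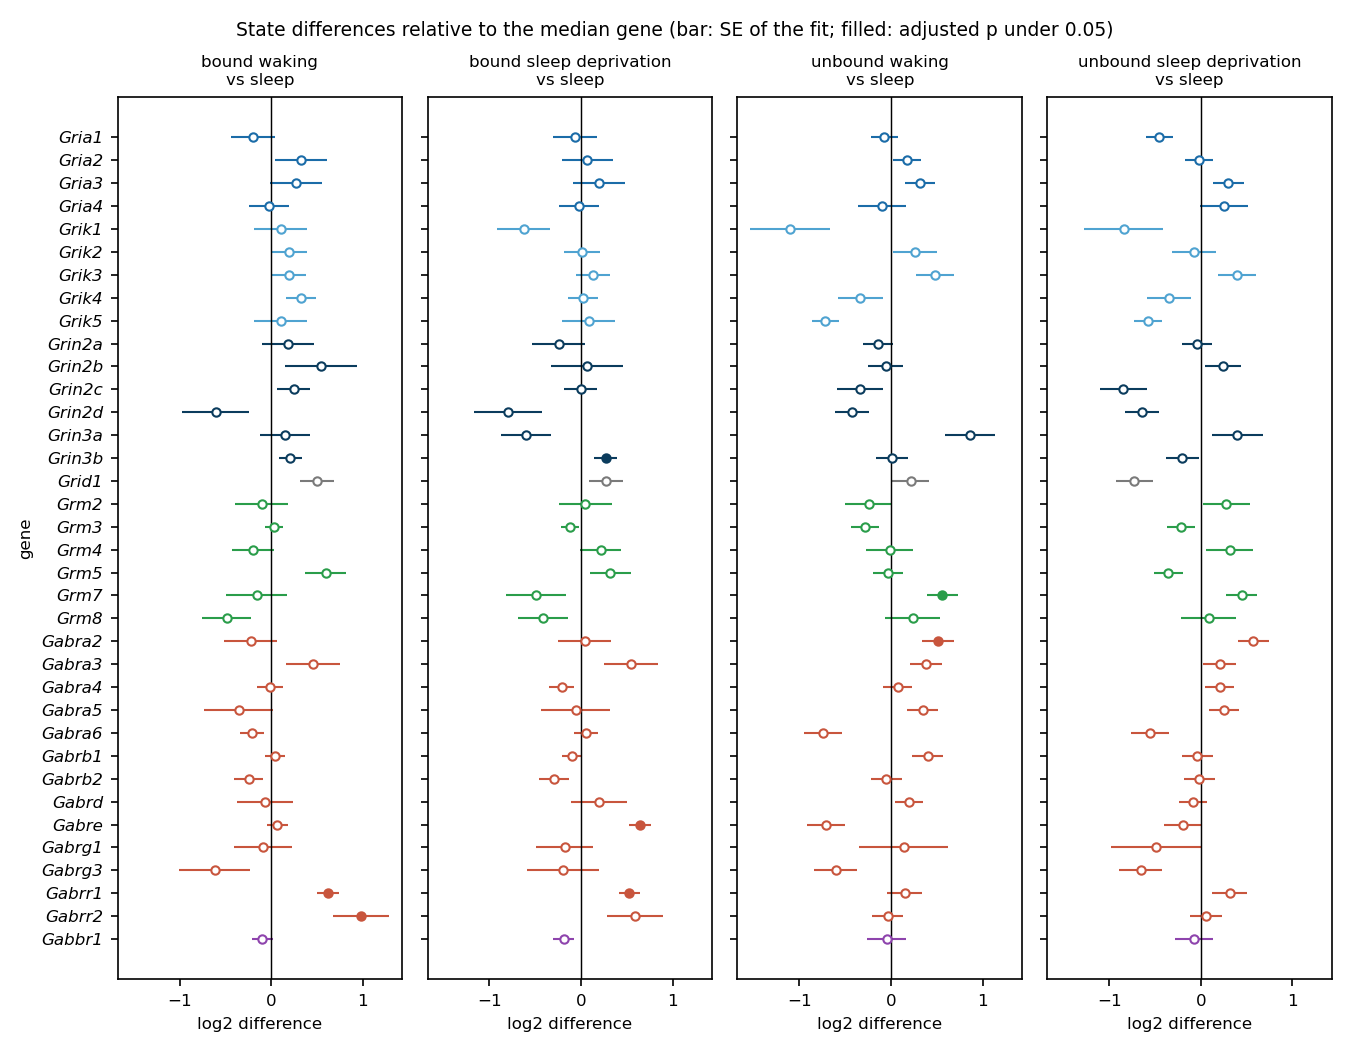
Differences of waking and of sleep deprivation from sleep for the 36 receptor genes in each fraction, on a log2 scale relative to the median gene, with the SE of the fit; filled circles are called and colours mark families. Filled circles are few: 2 and 3 in the bound panels, 2 and 0 in the unbound panels.

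The called genes were mostly GABA-A genes with low values. Gabrr1, which encodes a rho subunit known from retina, read 2.48 to 2.87 in sleep (median 2.78), 3.22 to 3.71 in waking (median 3.45) and 3.17 to 3.74 after sleep deprivation (median 3.29). All waking and sleep-deprived arrays lay above all sleep arrays. It was higher by 0.62 in waking (SE 0.12, adjusted p = 0.000659) and by 0.53 after sleep deprivation (SE 0.12, adjusted p = 0.0012). Gabre, which encodes the epsilon subunit, read 2.88 to 3.50 in sleep (median 3.36), 3.22 to 3.64 in waking (median 3.42) and 3.80 to 4.30 after sleep deprivation (median 4.02). The sleep-deprived arrays stood above both other groups without overlap. The difference was 0.64 against sleep (SE 0.12, adjusted p = 0.000322) and 0.57 against waking (SE 0.12, adjusted p = 0.00446).

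Gabrr2, the other rho subunit gene measured, read 3.25 to 4.05 in sleep (median 3.46), 3.78 to 6.27 in waking (median 4.45) and 3.93 to 4.63 after sleep deprivation (median 4.10). The waking group held 1 array far above the rest, and the groups overlapped. It was higher in waking by 0.98 (SE 0.31, adjusted p = 0.0292). Without that array, waking replicate 3, the difference was 0.65 (adjusted p = 0.0215). The call ended without sleep replicate 4, 5 or 6 or without waking replicate 1 (adjusted p 0.0549 to 0.0613), and when quantile normalization was repeated over the arrays (adjusted p = 0.1).

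These 3 genes lay low on the arrays, and the low end itself moved with state. The 25th percentile of all probe sets was 3.53 to 3.59 on the sleep arrays, 3.72 to 3.83 on the waking arrays and 3.76 to 3.88 on the sleep-deprived arrays. All 18 bound values of Gabrr1 lay below it, as did 13 of 18 of Gabre and 5 of 18 of Gabrr2. The part of this shift in the state differences was not tested. The Gabrr1 and Gabre calls remained when quantile normalization was repeated, with differences of 0.59 and 0.49 for Gabrr1 and 0.52 and 0.53 for Gabre. No receptor gene was called between bound states when genes below the median level of all probe sets were left out.

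The 1 brighter gene called was Grin3b. Its values were 6.75 to 7.43 in sleep (median 7.02), 7.21 to 7.66 in waking (median 7.26) and 7.08 to 7.59 after sleep deprivation (median 7.47). It was higher after sleep deprivation by 0.27 (SE 0.12, adjusted p = 0.0478), with overlapping groups. That call ended without any 1 of 15 of the 18 arrays (adjusted p 0.0548 to 0.11) and with repeated quantile normalization (adjusted p = 0.237).

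**Figure D4:**
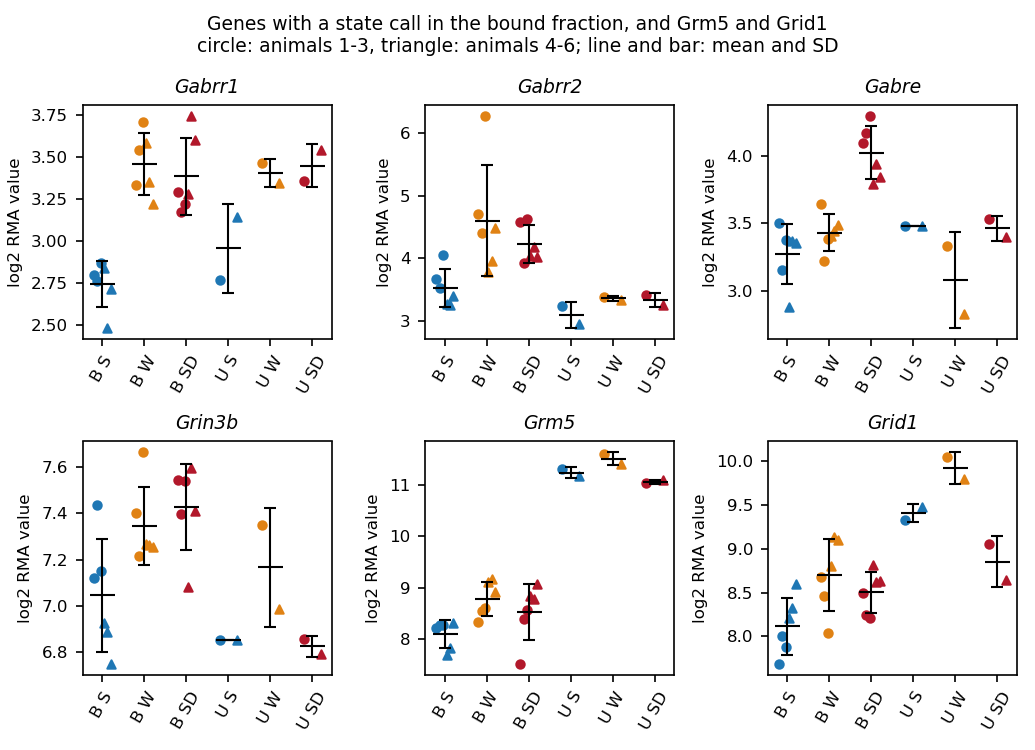
Log2 value on every array for the 4 genes called between bound states and for Grm5 and Grid1; circles are animals 1 to 3 or their pool, triangles animals 4 to 6 or their pool, and lines with bars the mean and SD. Bound sleep arrays of Gabrr1 lie at or below 2.87, under all other bound arrays, and bound sleep-deprived arrays of Gabre at or above 3.80, over all other bound arrays.

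With the replicate number as a block, 5 receptor genes were called in waking against sleep, with Grid1, Grin2c and Grm5 added, and 5 in sleep deprivation against sleep, with Gabrr2 and Grid1 added. Under the same block 16.8% and 21.3% of all genes were called. Grm5 read 7.68 to 8.30 in sleep (median 8.24), 8.32 to 9.17 in waking (median 8.75) and 7.51 to 9.07 after sleep deprivation (median 8.67). Its waking and sleep arrays did not overlap, and the difference of 0.59 had an adjusted p of 0.0573 without the block (SE 0.22) and 0.0373 with it (SE 0.21). Grid1 read 7.69 to 8.60 in sleep (median 8.10), 8.04 to 9.13 in waking (median 8.74) and 8.21 to 8.81 after sleep deprivation (median 8.56), overlapping. Its difference in waking was 0.50, with an adjusted p of 0.0507 (SE 0.19) and 0.00422 with the block (SE 0.11). After sleep deprivation Grid1 differed from sleep by 0.28 (adjusted p = 0.0294 with the block).

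The unbound fraction has 2 pools per state, which limits every comparison there. In waking against sleep, 2 of 36 receptor genes were called higher and 0 lower, against 6.32% of all genes (5.71% higher and 0.605% lower). Grm7 read 8.36 and 8.36 in the sleep pools, 9.36 and 9.10 in the waking pools and 9.08 and 8.89 after sleep deprivation. Its waking difference was 0.56 (SE 0.17, adjusted p = 0.0454). Gabra2, an alpha subunit gene, read 8.70 and 8.90, 9.69 and 9.55, and 9.66 and 9.44 in the same order, with a waking difference of 0.51 (SE 0.17, adjusted p = 0.049). Waking pools were above sleep pools for both genes. Neither call remained without any 1 of the 6 pools, with repeated quantile normalization or with array medians centred.

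By limma, 0 receptor genes were called between sleep deprivation and sleep in the unbound fraction, against 1.87% of all genes (1.42% higher and 0.451% lower), and 11 had an unadjusted p under 0.05, as did 25.3% of all genes. Between sleep deprivation and waking 0 were called, against 0.759% (0.242% higher and 0.517% lower), and 6 had an unadjusted p under 0.05, as did 21.0% of all genes. The median differences of the 36 genes were -0.02 in waking and -0.04 after sleep deprivation against sleep, and -0.04 between the latter states. Grin3b and Gabre had identical values in both sleep pools, 6.85 and 3.48.

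The difference of the state effects between fractions was tested directly. For waking against sleep, 0 receptor genes were called, against 5.60% of all genes (1.89% higher and 3.71% lower), with 2 at an unadjusted p under 0.05, as had 18.2% of all genes. For sleep deprivation against sleep, 0 were called, against 4.89% (2.91% higher and 1.98% lower), with 4 at an unadjusted p under 0.05, as had 16.6% of all genes. The smallest adjusted p was 0.0684, for Gabre after sleep deprivation, where the bound minus unbound difference was 0.84 (SE 0.24). The state calls of one fraction are therefore not shown to differ from the other fraction.

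Within the bound fraction, receptor genes differed between animals 1 to 3 and animals 4 to 6. This comparison was added after the data were seen. With the state in the model, 19 of 36 were called, 12 higher and 7 lower in animals 4 to 6, against 22.9% of all genes higher and 21.0% lower. Gabrg1 had the largest difference, 1.02 (SE 0.08, adjusted p = 1.52e-08). In each state its 3 arrays of animals 4 to 6 lay above its 3 arrays of animals 1 to 3. Grik5 went the opposite way by -0.93 (SE 0.09, adjusted p = 1.78e-07). Gabrg3 (0.99), Grin2b (0.86), Gria2 (0.82), Gria3 (0.81) and Grm7 (0.75) were also higher in animals 4 to 6, and Grm2 (-0.82), Gabrr2 (-0.61), Gabra3 (-0.56) and Grin2c (-0.38) lower.

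The same split moved the marker genes. In animals 4 to 6 Rpl10a differed by -0.81. Of the 10 astrocyte markers 2 were higher, 3 lower and 5 not called, from -0.37 (Aldh1l1) to 0.75 (Gfap), with a median of 0.05. The mean level of the 8 general neuron markers was 10.32 in animals 1 to 3 and 10.47 in animals 4 to 6, with ranges of 10.03 to 10.67 and 10.32 to 10.56. Over the 3 excitatory neuron markers measured it was 8.52 and 7.53, with 1 marker higher (0.56) and 2 lower (-0.37 and -3.19), so that Slc17a7, at -3.19, carried most of the drop. Their part in the receptor differences was not tested. The excess of Gabrg1 in the bound fraction was 1.28 among animals 1 to 3 and 2.90 among animals 4 to 6, each against their own pools. For Grik5 these values were 1.50 and 0.60, for Grin2c 4.15 and 3.75, and for Grm3 1.67 and 1.55. All 4 genes were called in both sets.

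**Figure D5:**
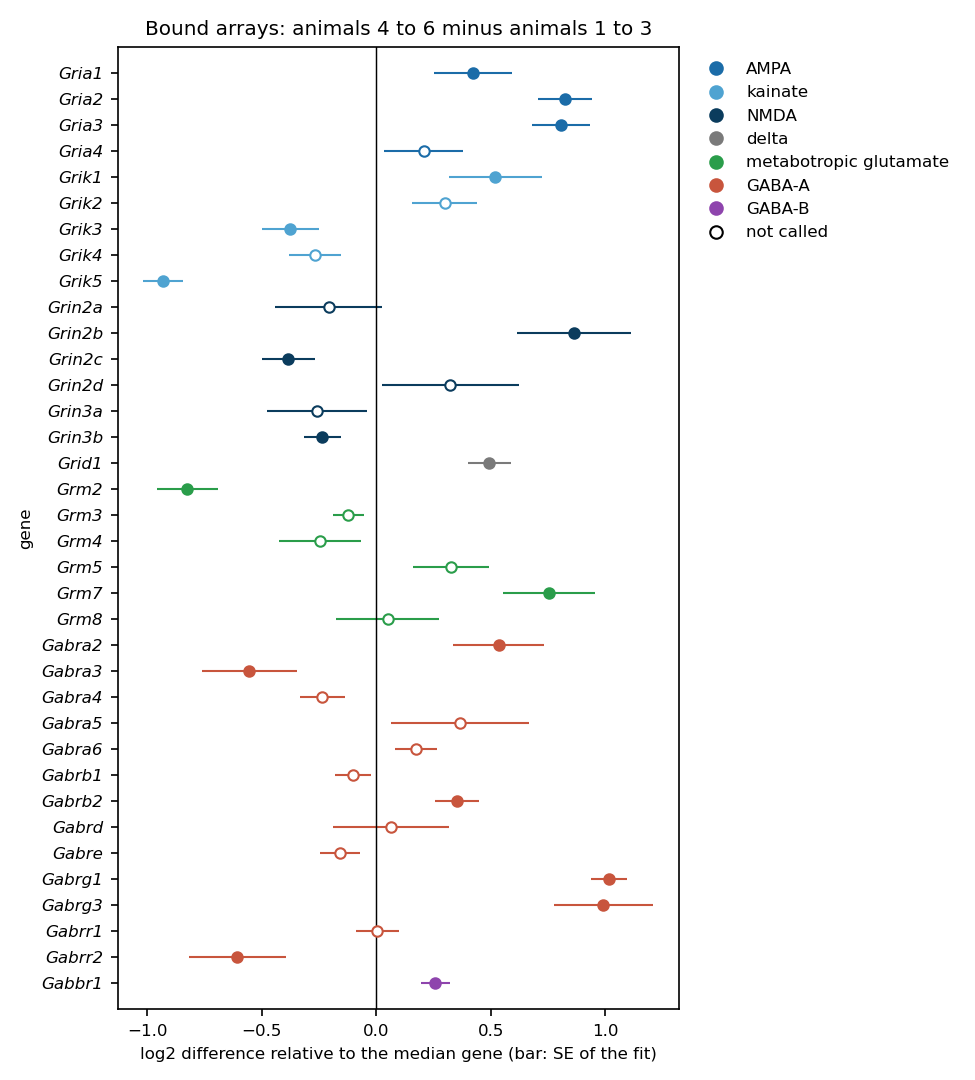
Difference between bound arrays of animals 4 to 6 and animals 1 to 3 for the 36 receptor genes, on a log2 scale relative to the median gene, with the SE of the fit; filled circles are called and colours mark families. Gabrg1 lies at 1.02 and Grik5 at -0.93, and 19 genes are filled.

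Proteins that accompany these receptors were read from lists of auxiliary, scaffold and anchoring genes and GABA-A genes outside the symbol patterns, 37 of 41 of them measured. Between fractions 10 were higher, 19 lower and 8 not called, with a median of -0.67, against 42.2% of all genes higher and 27.2% lower. Kctd12b, of a family of GABA-B auxiliary proteins, was higher by 4.05, and Cacng8, an AMPA auxiliary subunit, by 1.59, although all 4 AMPA genes were lower. The unbound pools of Kctd12b read 2.87 to 3.59, near the low end of the arrays, so low signal limits the size of its difference. Dlg2, a scaffold of glutamate synapses, was at -2.84 and Neto2, a kainate auxiliary subunit, at -2.59. Between bound states 3 were higher in waking than in sleep (Homer1, Kctd8 and Gabrq) and 2 after sleep deprivation (Homer1 and Gabrq), against 11.2% and 14.3% of all genes called. None of the 37 was lower in either comparison, and 0 were called between sleep deprivation and waking (6.84% of all genes).

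Homer1, whose scaffold binds metabotropic receptors such as that of Grm5, had bound values of 10.15 to 11.03 in sleep (median 10.44), 10.88 to 11.88 in waking (median 11.16) and 11.14 to 12.20 after sleep deprivation (median 11.75). Sleep-deprived and sleep arrays did not overlap, and the difference was 1.06 (SE 0.21, adjusted p = 0.000806). In waking it was 0.58 (SE 0.21, adjusted p = 0.0413), a call that ended without any 1 of 9 of the 18 arrays. The unbound pools gave 1.04 for sleep deprivation (SE 0.15, adjusted p = 0.0374), a call lost without any 1 of the 6 pools. In the unbound fraction 4 of 37 listed genes were called in waking against sleep, against 6.32% of all genes, all higher: Grip1 (0.85), Pick1 (0.86), Gsg1l (0.54) and Homer1 (0.44). Homer1 was the 1 gene called after sleep deprivation against sleep (1.87% of all genes), and Grip1 the 1 called against waking (0.759%), at -1.08 (adjusted p = 0.0476). Each of these unbound calls ended without any 1 of the 6 pools.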

How the data were processed

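Cortical RNA of 24 arrays (18 bound, 6 unbound) was analysed on Affymetrix Mouse Genome 430 2.0 arrays. The deposited values are log2 RMA values (background-corrected, quantile-normalized and summarised per probe set by the authors), per the submitters' processing notes. The version and the arrays normalized together are not given in the sources used here. Of 45101 probe sets, 64 controls were left out, 34945 had 1 symbol, 932 several (2 of them naming a receptor gene) and 9160 none in the platform annotation. Entrez IDs of all 36 receptor genes matched RefSeq.

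Models were fitted in limma 3.58.1 (R 4.3.3; lmFit and eBayes) over 18193 genes, with Benjamini-Hochberg adjustment and a threshold of 0.05. Script checks on simulated data were run. State comparisons used the 18 bound or 6 unbound arrays, and comparisons with fraction all 24 in 6 groups. Tables and figures used Python 3.11.15, pandas 2.3.3, numpy 2.4.6 and matplotlib 3.10.9. The number of arrays limits the precision. Labels call the arrays biological replicates.

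Same-numbered bound arrays of different states are different mice, and their residual correlations were 0.27 to 0.53 over 18 pairs. After removal of the difference between animals 1 to 3 and 4 to 6 these correlations were -0.11 to 0.18, so little was left beyond this split. A pool and its 3 bound animals are the same mice by the design, and their residuals correlated at -0.05 to 0.03. The main models had no block. Values are printed by group for called state genes and the 8 largest fraction differences each way. The members, lists and rules were chosen with earlier results of these data known. Alternatives were blocks, normalization, dim genes, probe set choice, variance settings, subsets of animals and each array left out.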

Additional observations from a re-analysis of the deposited data

Results flagged for a closer look

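In bound groups of 6 arrays, 4 of 108 gene and group combinations had 1 array separated from the others by more of the group's range than Dixon's limit allows, which chance gives in about 1 in 20 groups. Grin2c in sleep replicate 1 read 10.99, with the next array at 10.29. Grin3a in waking replicate 3 read 8.92, with the next at 8.09. Gabra4 in waking replicate 1 read 8.96, with the next at 8.46. Gabrr2 in waking replicate 3 read 6.27, with the next at 4.71.

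Among the accompanying genes, 2 had state effects that differed between fractions by limma's interaction test. Gabrq, which encodes the GABA-A theta subunit, had a bound minus unbound difference of 1.50 for waking (SE 0.31, adjusted p = 0.0156) and 1.73 for sleep deprivation (SE 0.31, adjusted p = 0.00239). Its values were 2.17 to 2.69 on bound sleep arrays, 2.96 to 3.80 in waking and 3.16 to 3.79 after sleep deprivation, and 3.88 and 4.01 in the unbound sleep pools, all near the low end of the arrays. Its waking call ended without either unbound sleep pool or the unbound waking pool of animals 4 to 6 (adjusted p 0.0525 to 0.106). Pick1, which encodes a scaffold that binds AMPA receptor subunits, had a difference of -1.12 for waking (SE 0.39, adjusted p = 0.045), a call that ended without any 1 of 16 of the 24 arrays (adjusted p 0.0501 to 0.206). With each pool and its animals as a block, 0% of all genes were called in either interaction. The Gabrq calls for waking and sleep deprivation and the Pick1 call were thus all lost.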

How the results depend on the processing

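Between fractions, 31 receptor genes were called and 23 to 33 under all alternatives (29 to 31 with each array left out). Gabrb1 turned to -0.51 as fitted (-0.63 relative to the median gene) with the mean of its probe sets, and Gabre to -0.21 as fitted (-0.42 relative) within sleep. Of the other alternative values of single genes, 1237 kept direction and call and 100 lost the call. Counts of receptor genes between states were small. Except for the replicate block, the share of all genes called under each alternative is not given here. The alternative counts below therefore have no background. Bound waking against sleep (2) gave 5 with the replicate block, 6 with the animal set as block, 1 in animals 1 to 3 or 4 to 6 alone, 1 with repeated quantile normalization or centred medians, 0 without dim genes, 4 with the spread from all 24 arrays, 5 with every probe set and 1 to 3 with an array left out. Bound sleep deprivation against sleep (3) gave 5 with the replicate block, 0 without dim genes, 7 with every probe set and 2 to 4 with an array left out. Bound sleep deprivation against waking (1) gave 0 in animals 4 to 6 or without dim genes, 3 with every probe set and 1 with any array left out. Unbound waking against sleep (2) gave 0 with the replicate block, quantile normalization, centred medians, without dim genes or with a pool left out, 5 with the mean of probe sets, 8 with a robust trend, 1 with all 24 arrays and 4 with every probe set. With the replicate block 0% of all genes were called in any unbound comparison, so that count says nothing particular about receptor genes. Both other unbound comparisons (0) gave 2 with the robust trend and 1 with every probe set. The interaction for waking (0) gave 1 with the mean of probe sets, with array weights and with every probe set. The interaction for sleep deprivation (0) gave 1 with the set block, 2 with array weights and 1 with every probe set. The animal set comparison (19) gave 14 to 18 with an array left out. The unbound pools did not pair by number (residual correlations 0.00 to 0.03). The replicate block changed no other call of those of the 36 receptor genes named in the report. Among the accompanying genes, the interaction calls of Gabrq and Pick1 were lost with each pool and its animals as a block. Causes were not tested. Low signal limits Gabrr1, Gabrr2, Gabre, Gabra6, Grik1, Grm8, Gabrq and, on the unbound arrays, Kctd12b.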
